A study of Mus musculus with 8 samples.

Results

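The genes described here are 10 components of canonical Wnt signaling, chosen by their symbols from the 31053 genes counted in each library. They comprise the coreceptors and receptors Lrp4, Lrp5, Lrp6, Fzd1 and Fzd2, the transducer β-catenin (Ctnnb1), the DNA-binding partners of β-catenin encoded by Tcf7 and Lef1, and the feedback inhibitors Axin2 and Nkd2. In the canonical pathway, a Wnt ligand joins a Frizzled receptor to the coreceptor LRP5 or LRP6, the complex that destroys β-catenin is held at the membrane, and β-catenin accumulates and enters the nucleus to activate genes together with TCF and LEF proteins. In bone this pathway promotes the formation and activity of osteoblasts, and it is restrained by sclerostin, which mature osteoblasts and osteocytes secrete and which binds LRP5, LRP6 and LRP4. Loss of LRP5 function in humans gives fragile bones, and certain gain-of-function changes give high bone mass.

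Single cells of parietal bone (part of the skull vault) from P4-5 mouse pups were counted by droplet RNA sequencing with unique molecular identifiers (UMIs) in 8 libraries, 4 wild type (WT) and 4 heterozygous (Het) for a glycine-to-cysteine substitution in the triple helix of the α2 chain of type I procollagen, all of the strain B6.129(FVB)-Col1a2tm1Mcbr/J. The mutation is carried by every cell of the animal, and each library pooled up to 5 animals of 1 genotype, so differences between single animals cannot be seen. The WT libraries are named S1, S2, S5 and S6 and the Het libraries S3, S4, S7 and S8, of which the first 4 numbers were prepared by kit version 3 and the last 4 by kit version 3.1. The study compared the genotypes to learn how misfolded procollagen alters osteoblasts as they mature.

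A cell was taken as an osteoblast (OB) when it held 10 or more UMIs of Col1a1 and when 2 or more of the genes Runx2, Sp7 and Ibsp had 2 or more UMIs each. None of these 4 is among the 10 genes. The 2671 OBs of 46420 cells that passed quality control were split by the Col1a1 share of their UMIs into early OBs (eOBs, under 0.75%, 379 cells), differentiating OBs (dOBs, 0.75% to 3.5%, 1217 cells) and mature OBs (mOBs, over 3.5%, 1075 cells). Sums of eOBs held 22 to 95 cells per library and sums of mOBs 42 to 299 cells. Osteoblast markers that the rule did not use (Alpl, Bglap, Ifitm5, Dmp1, Phex and Spp1) were all 6 higher in OBs than in the other cells, by 3.69 to 6.20 on the log2 scale. Total depth ran from 30480239 to 85162035 UMIs per library. The cell suspensions differed. The share of cells with 3 or more haematopoietic markers was 46.5% and 56.5% in the WT libraries of kit version 3 and 3.21% to 9.75% elsewhere. The share with 3 or more chondrocyte markers was 3.71% and 4.33% in those WT libraries, 26.8% and 41.9% in the Het libraries of the same kit, and 77.7% to 92.2% under kit version 3.1. No library pair shared more than 0.663% of the cell barcodes of the smaller one. Levels are UMIs of the gene per 1000000 UMIs of the sum (CPM), and they are compared between populations or libraries for 1 gene at a time. Fold changes and adjusted p-values come from edgeR's quasi-likelihood test on summed UMIs, adjusted by Benjamini-Hochberg over all genes tested, and a gene was called at an adjusted p under 0.05.

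OBs stood out from the rest of the suspension first of all by Tcf7 and Lrp4. Tcf7, which encodes the factor TCF-1, ran from 26.1 to 92.4 CPM in OBs and from 2.03 to 5.55 in the other cells. Its log2 fold change, OBs over other cells of the same library, was 3.79 ± 0.23 (SE, 8 libraries, edgeR adjusted p = 2.36e-06), and it was higher in OBs in 8 of 8 libraries. Lrp4, a receptor of the LDL receptor family that anchors sclerostin at the cell surface, ran from 23.0 to 156 CPM in OBs and from 6.42 to 30.8 in other cells. It was higher in OBs by 2.38 ± 0.21 on the log2 scale (edgeR adjusted p = 2.00e-05), in 8 of 8 libraries.

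Of the 10 genes, 5 were called higher in OBs, where 13.8% of the 16420 genes tested were called higher, and 3 were called lower, where 23.8% of all genes were. The other genes called higher were Lrp5 (log2 fold change 0.97 ± 0.18, edgeR adjusted p = 0.00168), Ctnnb1 (0.82 ± 0.16, edgeR adjusted p = 0.00275) and Nkd2 (0.87 ± 0.27, edgeR adjusted p = 0.0273). The call of Nkd2, a cytoplasmic protein that binds Dishevelled, did not hold in 9 of the 17 alternatives, 5 of which left out 1 library (WT S1, S2 or S6 or Het S7 or S8, with log2 fold changes of 0.72 to 0.89). The genes called lower in OBs were Lef1 (log2 fold change -1.08 ± 0.17, edgeR adjusted p = 0.000572), Axin2 (-0.93 ± 0.26, edgeR adjusted p = 0.0177) and Lrp6 (-0.56 ± 0.16, edgeR adjusted p = 0.0197). The calls of Axin2 and Lrp6 did not hold with the looser OB selection. The Frizzled receptors Fzd1 (0.44 ± 0.20, edgeR adjusted p = 0.105) and Fzd2 (-0.38 ± 0.20, edgeR adjusted p = 0.168) were not called. Without WT S1 and S2, the libraries with the most haematopoietic-like cells (2438 and 2002), Fzd2 was called lower (-0.64, edgeR adjusted p = 0.00186) and the values of Tcf7 (3.63) and Lef1 (-1.26) stayed on their side of the threshold. That fit called 4 of the 10 genes higher, with Nkd2 no longer among them, and 4 lower. Of all 15961 genes tested there, 3306 were called higher and 3799 lower.

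The map of medians by class shows which cells held the other transcripts. The classes were named from markers, and the median of a gene over the libraries with at least 20 cells of a class is given. Tcf7 stayed at or under 6.41 CPM in each of the 6 classes of other cells, against 57.0 in mOBs. Lrp4 had its highest median outside OBs in endothelial-like cells, 47.0 CPM against 118 in eOBs. Endothelial-like cells also had the highest median of Ctnnb1, 619 CPM, and the highest of Lrp5, 79.4, which was above the 65.0 of mOBs. That order held in WT S1 and S5 and in each Het library. In WT S2 and S6 Lrp5 was higher in mOBs than in endothelial-like cells (65.1 against 50.4 and 104 against 99.6).

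Chondrocyte-like cells had 59.9 CPM of Lef1 and 20.3 of Axin2, above every OB stage. Fibroblast-like cells, which reached 20 cells in only 3 libraries, all of kit version 3, had the highest medians of Fzd1 (92.4), Fzd2 (175) and Lrp6 (202). Nkd2 was at 23.3 CPM in smooth muscle or pericyte-like cells and at or under 7.96 in every other class and stage. These levels are a description of the classes and were not tested against each other.

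Within OBs, the 2 nuclear partners of β-catenin moved in opposite directions with maturation. Tcf7 ran from 8.05 to 34.3 CPM in eOBs (median 12.8), from 22.6 to 84.6 in dOBs (median 29.0) and from 33.3 to 100.1 in mOBs (median 57.0). It rose in 8 of 8 libraries from eOBs to mOBs, by 2.43 ± 0.21 on the log2 scale (edgeR with the library as a block, adjusted p = 1.07e-08). Lef1, which encodes the related factor LEF-1, ran from 27.0 to 86.4 CPM in eOBs (median 37.0), from 7.69 to 35.6 in dOBs (median 21.3) and from 1.40 to 22.6 in mOBs (median 6.61). It fell in 8 of 8 libraries, by 2.26 ± 0.26 on the log2 scale (edgeR adjusted p = 7.00e-07).

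Because both genes were counted in the same sum, their ratio needs no library size. In eOBs there were 0.163 to 1.17 UMIs of Tcf7 per UMI of Lef1, with Tcf7 below Lef1 in all libraries but Het S4, where the counts were 7 and 6. In mOBs the ratio ran from 2.20 in Het S8 (33 and 15 UMIs) to 71.5 in Het S4 (286 and 4 UMIs). Tcf7 exceeded Lef1 in mOBs of all 8 libraries. The ratio is a description chosen after the levels were seen. In other cells Lef1 exceeded Tcf7 in every library, with 0.0282 to 0.301 UMIs of Tcf7 per UMI of Lef1.

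**Figure D1:**
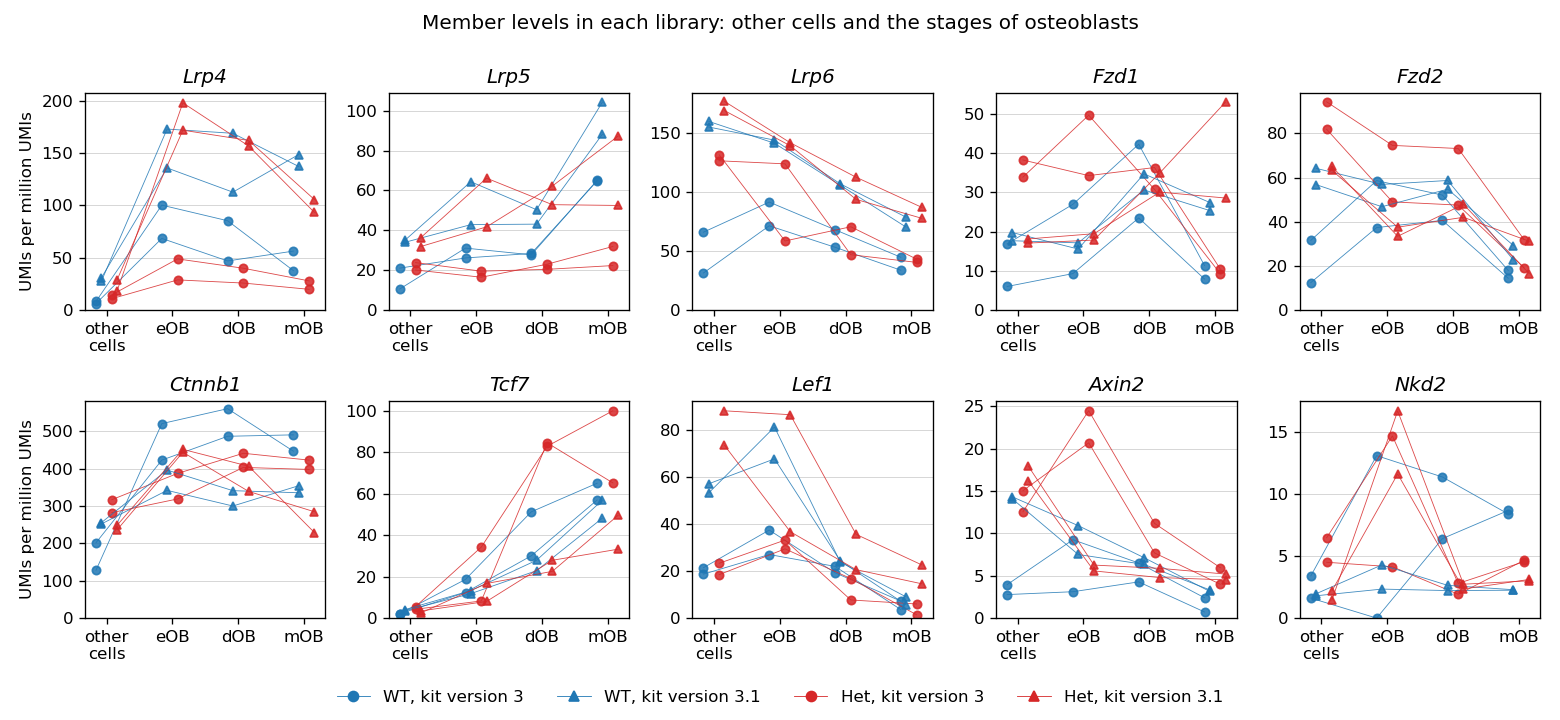
CPM (y axis, linear from 0, own scale in each panel) of the 10 genes in other cells, eOBs, dOBs and mOBs (x axis), 1 line per library, with WT in blue, Het in red, circles for kit version 3 and triangles for kit version 3.1. Tcf7 rises from eOBs to mOBs and Lef1, Lrp6 and Fzd2 fall in all 8 libraries, and the lines of Lrp4 separate by kit version.

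Shares of cells with a UMI of a gene were taken after thinning each cell to 2000 UMIs, so that depth was equal. At such low counts these shares mainly follow the mean level. Neither they nor the sums tell more cells with a transcript from more transcripts per cell. A UMI of Tcf7 was found in a median over libraries of 2.29% of eOBs (0% to 8.70%) and of 8.22% of mOBs (4.81% to 17.8%), against 0% to 1.98% of endothelial-like cells. Before thinning the medians were 15.9% and 44.6%, at median depths of 6571 to 15054 UMIs per eOB and 12348 to 21116 per mOB. The share of cells with Lef1 went the other way, with a median of 10.1% in eOBs (1.75% to 17.9%) and 1.33% in mOBs (0% to 7.32%), the latter next to 0.560% in endothelial-like cells. Before thinning the Lef1 medians were 31.9% in eOBs and 8.10% in mOBs. Lrp5 was found in a median of 6.56% of eOBs (0% to 16%) and 11.9% of mOBs (3.65% to 19.5%) after thinning. In endothelial-like cells the median for Lrp5 was 12.6% (4.35% to 21.7%), above that of mOBs, and in haematopoietic-like cells 2.43%. Thinning left out 3 eOBs and 10 mOBs with fewer UMIs.

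The coreceptors LRP5 and LRP6, which take the same place in the receptor complex, also parted. Lrp5 ran from 16.6 to 66.2 CPM in eOBs (median 36.5) and from 22.4 to 104 in mOBs (median 65.0). It rose in 7 of 8 libraries, Het S7 excepted, by 1.16 ± 0.18 on the log2 scale (edgeR adjusted p = 2.36e-05). The levels of the stages overlapped between libraries, and the rise was seen within libraries.

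Lrp6 ran from 58.8 to 144 CPM in eOBs (median 132) and from 34.0 to 87.3 in mOBs (median 57.8), and fell in 8 of 8 libraries, by 0.50 ± 0.10 on the log2 scale (edgeR adjusted p = 0.000383). In cells thinned to 2000 UMIs the fall of Lrp6 was of like size (-0.43) but not called (edgeR adjusted p = 0.178). Lrp4 was not called between mOBs and eOBs (log2 fold change -0.13 ± 0.14, edgeR adjusted p = 0.530), and its direction turned with the OB selection, being called higher in mOBs with the looser selection (0.64, edgeR adjusted p = 0.00316) and lower with the stricter one (-0.42, edgeR adjusted p = 0.0365).

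Fzd2, a receptor for canonical and noncanonical Wnt ligands, fell in 8 of 8 libraries from 33.4 to 74.5 CPM in eOBs to 14.5 to 32.0 in mOBs. Its log2 fold change was -0.62 ± 0.13 (edgeR adjusted p = 0.000593). Fzd1 fell in 4 libraries and rose in 4. All 4 in which Fzd1 fell were of kit version 3 and all 4 in which it rose of kit version 3.1, and it was not called (0.51 ± 0.31, edgeR adjusted p = 0.218).

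Axin2, a scaffold of the destruction complex that canonical signaling itself induces and a common readout of the pathway, fell in 8 of 8 libraries. It ran from 3.11 to 24.5 CPM in eOBs and from 0.724 to 5.95 in mOBs, and fell by 1.02 ± 0.26 on the log2 scale (edgeR adjusted p = 0.00372). The counts were low, at 1 to 14 UMIs of Axin2 per eOB sum and 1 to 17 per mOB sum. WT S2 had 1 UMI in each stage, and Het S8 had 2 in eOBs and 3 in mOBs. Nkd2 was not called (-0.36 ± 0.39, edgeR adjusted p = 0.516). Ctnnb1 ran from 319 to 520 CPM in eOBs and from 229 to 490 in mOBs and was not called (0.30 ± 0.13, edgeR adjusted p = 0.0671), although 6 of the 18 alternatives called it higher in mOBs.

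Across the maturation comparison 6 of the 10 genes were called, 2 higher and 4 lower, where 35.8% of the 11229 genes tested were called, 17.7% higher and 18.1% lower. The raw level of the median gene was lower in mOBs than in eOBs of the same library by 0.23 to 0.54 on the log2 scale, and the fits set this shift to about 0. Relative to the median gene of their library, Tcf7 rose in 8 of 8 and Lrp5 in 7 of 8 libraries, Lef1, Lrp6 and Fzd2 fell in 8 of 8 and Axin2 in 7 of 8. With UMIs of collagen genes left out of the library size the same numbers of genes were called, 2 higher and 4 lower.

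**Figure D2:**
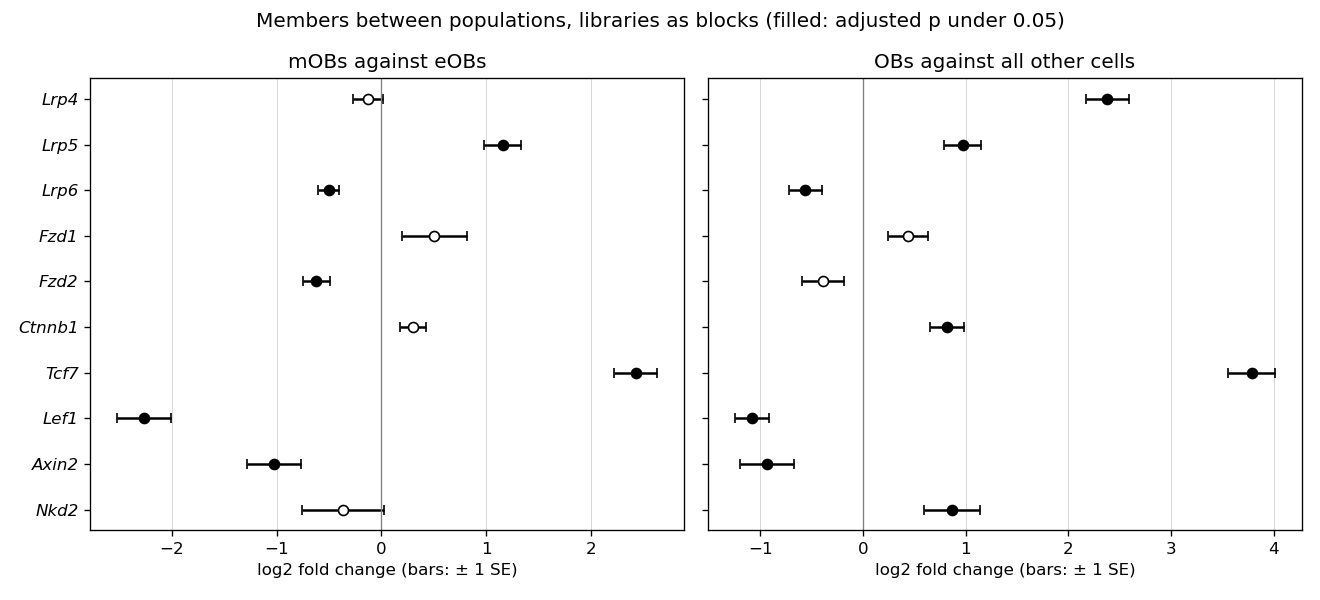
Log2 fold changes of the 10 genes with bars of ± 1 SE, mOBs over eOBs at left and OBs over all other cells at right, 8 libraries with the library as a block. Filled points had an adjusted p under 0.05, with Tcf7 the highest in both panels and Lef1 the lowest in both.

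The steps of maturation differed between genes. From eOBs to dOBs, where 15.4% of genes were called, Tcf7 rose (log2 fold change 1.49 ± 0.22) and Lef1 (-1.13 ± 0.23) and Lrp6 (-0.38 ± 0.10) fell. From dOBs to mOBs, where 26.8% were called, Tcf7 (0.94 ± 0.15) and Lrp5 (1.09 ± 0.15) rose and Lef1 (-1.13 ± 0.25) and Fzd2 (-0.80 ± 0.11) fell, with adjusted p-values of edgeR at or under 0.00205. Lrp5 did not change detectably before the second step (0.07 ± 0.18, edgeR adjusted p = 0.867), and Fzd2 was not called there either (0.18 ± 0.12, edgeR adjusted p = 0.344). The genes called in neither step were Lrp4 (-0.12 ± 0.14, then -0.00 ± 0.13), Fzd1 (0.78 ± 0.30, then -0.27 ± 0.24), Axin2 (-0.46 ± 0.24, then -0.56 ± 0.23), Nkd2 (-0.95 ± 0.40, then 0.59 ± 0.35) and Ctnnb1 (0.07 ± 0.13, then 0.24 ± 0.12), and Lrp6 was at -0.12 ± 0.09 in the second step. Neither step was tested against the other, and both used the dOB sums.

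Finer bins of the Col1a1 share placed the changes along maturation. Medians were taken over libraries with 10 or more cells in a bin, which left out WT S2 (9 cells) from 2% to 3.5% and kept all 8 libraries in the other bins. Median Lef1 over libraries was 37.0 CPM in OBs with under 0.75% Col1a1, 29.9 from 0.75% to 2%, 15.7 from 2% to 3.5%, 11.2 from 3.5% to 6% and 5.95 over 6%. Median Tcf7 was 12.8, 27.1, 37.2, 42.3 and 63.8 in the same bins. Median Lrp5 was 36.5, 32.0, 48.5 and 47.3 in the first 4 bins and 69.6 over 6%.

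**Figure D3:**
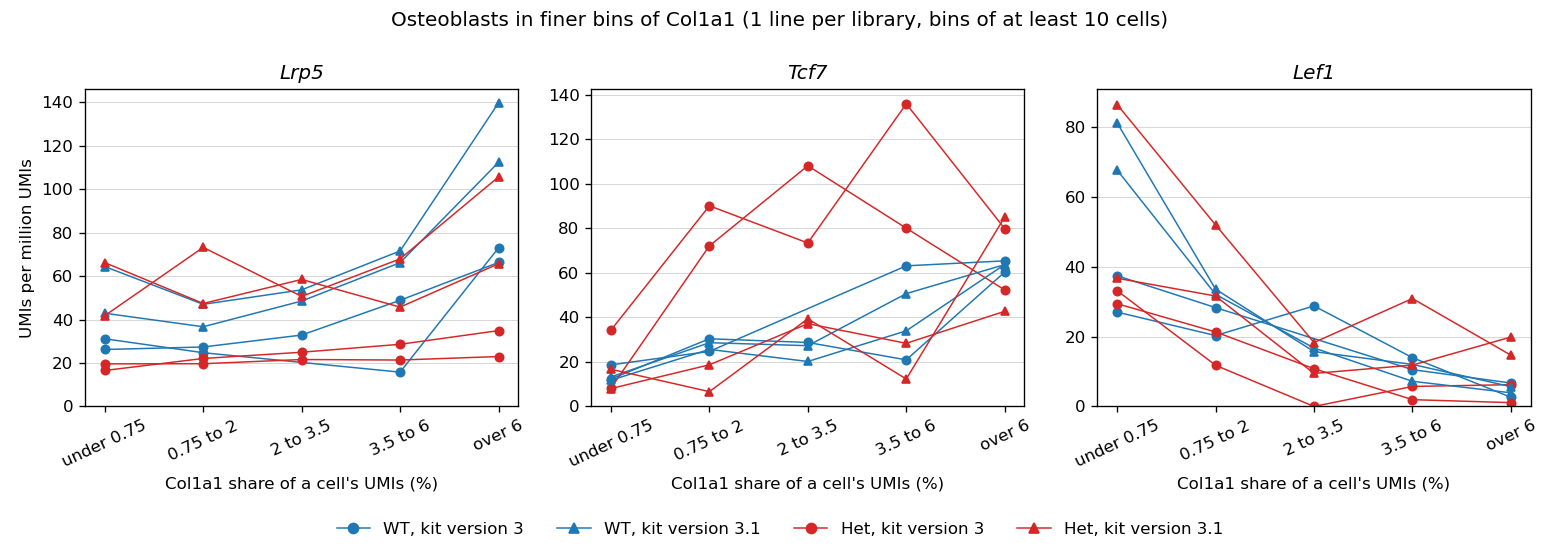
CPM (y axis, linear from 0) of Lrp5, Tcf7 and Lef1 in OBs binned by the Col1a1 share of each cell's UMIs (x axis), 1 line per library for bins of at least 10 cells, WT in blue, Het in red, circles for kit version 3 and triangles for kit version 3.1. The median of Lef1 over libraries falls along the bins while single libraries, such as Het S7 and S8, rise between some of them, Tcf7 is lowest in the first bin for most libraries, and Lrp5 in the last bin is at 66.3 to 140 in WT and 23.0 to 106 in Het libraries.

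RNA of other cells moved with the stages. The 6 chondrocyte markers together were at 18.7 to 22972 CPM in eOBs, with 2 to 6 of them detected, and at 19.8 to 2472 in mOBs, with 4 to 6 detected. They were lower in mOBs in 7 of 8 libraries, WT S2 excepted (18.7 in eOBs and 245 in mOBs). The 7 smooth muscle or pericyte markers together were lower in mOBs in 8 of 8 libraries, at 392 to 2195 CPM in eOBs and 64.2 to 453 in mOBs, and the median share of cells with 3 or more of them was 17.4% in eOBs and 3.51% in mOBs. For chondrocyte markers that share was 45.9% and 39.2%. Haematopoietic markers were lower in mOBs in all libraries but Het S4 and endothelial ones in all but Het S3. The part of these markers in the changes with maturation was not tested beyond leaving out OBs that held them. With OBs that held markers of another class removed (at least 2 UMIs in at least 2 markers of another class), Lef1 (-2.38), Axin2 (-1.77), Fzd2 (-0.79), Lrp6 (-0.43), Tcf7 (2.51) and Lrp5 (1.42) were all still called in their direction, and Lrp4 was called lower in mOBs (-0.64, edgeR adjusted p = 0.00267). The removal left 9 eOBs in Het S8, under the limit of 10 cells, so this sum was not in that fit.

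The DNA before the start sites is shown for Lef1, Fzd1 and Axin2, the first because it fell most with maturation and has starts within the gene, the second because it was the other gene with a match to the motif searched, and the third because it is the usual readout of the pathway. Promoter sequences of RefSeq (GRCm38.p6) were at hand for 6 of the 10 genes with 11 start sites. The 250 bases before each start were searched on both strands for CTTTGA and CTTTGT, forms of the core that TCF and LEF proteins bind. The forms differ only in their last letter, so a position matches at most 1 of them on a strand. Matches are in capitals, and the lines run 5′ to 3′ along the gene's strand. The first Lef1 start (plus strand, chr3:131110047-131110296) and the Axin2 start (plus strand, chr11:108920099-108920348) have none, the farthest Lef1 start within the gene (plus strand, chr3:131156044-131156293) has 3, and the Fzd1 start (minus strand, chr5:4758217-4758466) has 2.
Lef1, first start: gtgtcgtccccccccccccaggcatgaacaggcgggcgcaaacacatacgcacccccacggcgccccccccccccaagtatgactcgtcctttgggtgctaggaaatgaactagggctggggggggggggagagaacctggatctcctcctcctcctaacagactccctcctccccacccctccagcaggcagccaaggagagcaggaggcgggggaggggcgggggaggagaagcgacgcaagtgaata
Lef1, farthest start within the gene: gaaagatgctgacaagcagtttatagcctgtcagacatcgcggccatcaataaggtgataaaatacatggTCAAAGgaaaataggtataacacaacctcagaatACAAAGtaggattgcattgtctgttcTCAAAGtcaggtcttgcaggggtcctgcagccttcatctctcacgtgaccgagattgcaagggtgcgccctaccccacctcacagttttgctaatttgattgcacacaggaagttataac
Fzd1: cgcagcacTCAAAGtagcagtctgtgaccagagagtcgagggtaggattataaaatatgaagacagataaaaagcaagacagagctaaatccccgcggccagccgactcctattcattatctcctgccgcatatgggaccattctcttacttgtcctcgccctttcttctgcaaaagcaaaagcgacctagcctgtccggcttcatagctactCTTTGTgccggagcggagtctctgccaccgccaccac
Axin2: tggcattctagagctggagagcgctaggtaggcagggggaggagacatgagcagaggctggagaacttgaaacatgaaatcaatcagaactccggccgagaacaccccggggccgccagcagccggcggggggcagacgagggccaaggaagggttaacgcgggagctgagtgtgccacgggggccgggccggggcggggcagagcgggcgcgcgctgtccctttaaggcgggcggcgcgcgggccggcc

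These 2 of 11 windows held a match, against 27.6% of the 32851 windows of the table. The other 2 Lef1 windows, chr3:131110073-131110322 and chr3:131112541-131112790, the latter also within the gene, had none. The matches before the farthest Lef1 start began 180, 146 and 120 bases upstream of it, and those of Fzd1 242 and 37 bases upstream. The window before the first Lef1 start is 66.4% G and C and that before the farthest one 44.8%, where the median window has 52.4%. Tcf7 (2 starts), Ctnnb1 (2 starts) and Nkd2 (1 start) had no match. The counts of UMIs are per gene, so they do not say from which start the Lef1 transcripts came.

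In the annotation (GENCODE M21, GRCm38) Tcf7 lies on the minus strand of chr11:52252371-52283014, Lef1 on the plus strand of chr3:131110471-131224356, Lrp5 on the minus strand of chr19:3584828-3686564 and Lrp4 on the plus strand of chr2:91457511-91513779. Gene models lie within or across Tcf7 (Gm26551 on the same strand) and Lef1 (Gm42449 on the same strand), and reads of overlapping models can be assigned to either or to none. Lrp4, Lrp5, Lrp6, Fzd1 and Fzd2 overlap no other annotated gene.

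Het and WT were then compared within each stage, to ask whether the mutation altered these genes. In mOBs none of the 8 genes that passed the low-count filter was called, where 52 of 10033 genes (0.518%) were. At an unadjusted p under 0.05 there were 4 of the 8 and 1104 of the 10033, and DESeq2 called 3 of the 8, where it called 1.36% of all genes. Axin2 (0.724 to 5.95 CPM) and Nkd2 (2.25 to 8.68) did not pass the filter in mOBs. No gene of the 8 had all Het libraries above or below all WT libraries, which 2.57% of genes did.

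Lrp5 and Lrp4 lay nearest to the threshold, both lower in Het. Lrp5 in mOBs of kit version 3 was at 64.8 and 65.1 CPM in WT S1 and S2 and at 32.0 and 22.4 in Het S3 and S4. With kit version 3.1 it was at 88.2 and 104 in WT S5 and S6 and at 52.5 and 87.3 in Het S7 and S8. Within each kit version both Het libraries lay below both WT libraries, by a narrow margin for S8, while across kit versions the groups overlapped. This order within both kit versions held for 3.15% of the 10033 genes, and for Lrp5, Lrp4 and Ctnnb1 of the 8. The log2 fold change was -0.95 ± 0.21 (edgeR adjusted p = 0.0740), with -1.36 ± 0.27 within kit version 3 and -0.62 ± 0.23 within kit version 3.1.

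Lrp4 in mOBs was at 37.8 and 56.4 CPM in WT S1 and S2 and at 20 and 28.0 in Het S3 and S4. With kit version 3.1 it was at 148 and 137 in WT S5 and S6 and at 106 and 93.3 in Het S7 and S8. Here too both Het libraries lay below both WT libraries within each kit version, the order that 3.15% of genes had. The log2 fold change was -0.73 ± 0.15 (edgeR adjusted p = 0.0592), with -0.97 ± 0.23 within kit version 3 and -0.56 ± 0.18 within kit version 3.1.

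Both genes were called lower with DESeq2 (adjusted p = 0.0189 for Lrp5 and 0.00956 for Lrp4) and without the low-count filter, where edgeR called 2.91% of all genes. They were also called within kit version 3 alone (edgeR adjusted p = 0.0161 for Lrp5 and 0.0383 for Lrp4, with 3.46% of all genes called) and not within 3.1 (edgeR adjusted p = 0.623 and 0.462). Het S8 held 42 mOBs, and without it Lrp5 was at -1.20 (edgeR adjusted p = 0.00256) and Lrp4 at -0.76 (edgeR adjusted p = 0.0478), both called, where 1.71% of all genes were. Without Het S7 Lrp4 was also called (edgeR adjusted p = 0.0449), where 1.91% of all genes were. Leaving out a single library moved the adjusted p of Lrp5 between 0.00256 and 0.245. In cells thinned to 2000 UMIs, where the sums are small, Lrp5 was at -0.64 (edgeR adjusted p = 0.577) and Lrp4 at -0.73 (edgeR adjusted p = 0.494).

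Markers of other cells differed between the genotypes in the same mOBs. Of mOBs in kit version 3, 16.4% and 11.7% held 3 or more haematopoietic markers in WT S1 and S2 and 1.27% and 3.65% in Het S3 and S4, while in kit version 3.1 the share was at most 0.334%. Chondrocyte markers were found likewise in 0% and 2.60% of mOBs of WT S1 and S2 and in 21.5% and 7.29% of Het S3 and S4, while in kit version 3.1 the share was 56.9% and 59.6% in the WT libraries and 70.5% and 71.4% in the Het libraries. Smooth muscle or pericyte markers were found likewise in 1.37% and 0% of mOBs of WT S1 and S2 and 12.7% and 4.69% of Het S3 and S4, and endothelial markers in 0% and 0% and in 5.06% and 1.04%. In kit version 3.1 the smooth muscle or pericyte share was 2.34% and 4.81% in WT and 6.67% and 0% in Het, and the endothelial share 0.669% and 0% in WT and 1.90% and 0% in Het. With OBs that held 2 or more UMIs in 2 or more markers of another class removed, Lrp5 was at -0.78 (edgeR adjusted p = 0.153) and Lrp4 at -0.69 (edgeR adjusted p = 0.159), neither called, where 88 of 9030 genes were. The removal also shrank the sums. It left 127 of 299 and 86 of 208 mOBs in WT S5 and S6, and 24 of 105 and 18 of 42 in Het S7 and S8. In S1 to S4 it left 63, 67, 58 and 163 mOBs, of 73, 77, 79 and 192. The part of these markers in the values of Lrp5 and Lrp4 was not tested further.

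Ctnnb1 in mOBs had a log2 fold change of -0.36 ± 0.11 (edgeR adjusted p = 0.211), with -0.25 and -0.47 within kit versions 3 and 3.1. It was the third of the 8 genes called lower by DESeq2 (adjusted p = 0.0308). Fzd1 had 0.47 ± 0.21 (edgeR adjusted p = 0.430), with -0.02 and 0.69 within the kit versions. Lef1 was at -0.82 within kit version 3 and at 1.17 within 3.1, and Tcf7 at 0.41 and -0.51, so these had no common direction. Lrp6 (0.05 ± 0.13) and Fzd2 (0.20 ± 0.23) differed by less than the spread between libraries.

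**Figure D4:**
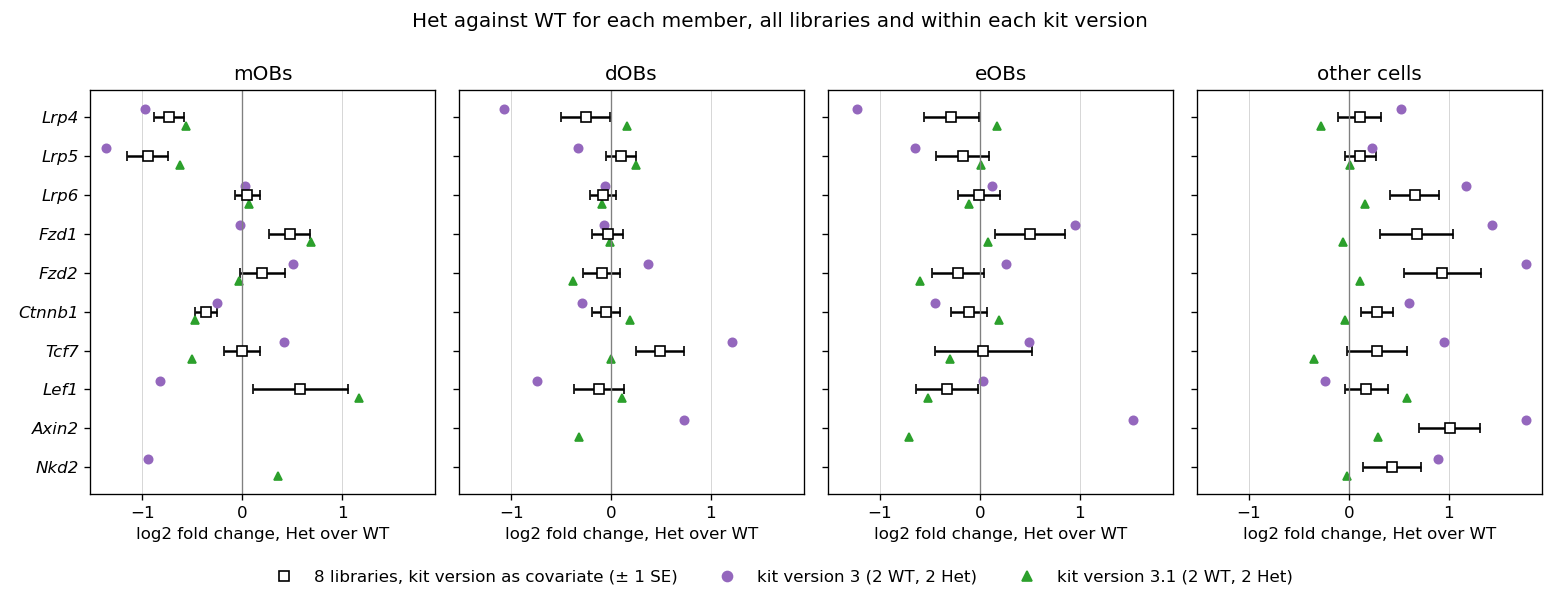
Log2 fold changes of Het over WT (x axis) for each gene in mOBs, dOBs, eOBs and other cells, with squares and bars of ± 1 SE for all 8 libraries with kit version as a covariate, circles for kit version 3 and triangles for kit version 3.1 (2 WT and 2 Het libraries each). In mOBs Lrp4, Lrp5 and Ctnnb1 lie below 0 in both kit versions, and in other cells the circles of 9 genes lie above 0 while the triangles lie between -0.34 and 0.58.

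The median Col1a1 share of UMIs in mOBs followed genotype only in kit version 3, with 11.6% and 10.2% in WT S1 and S2 and 6.0% and 7.71% in Het S3 and S4. In kit version 3.1 the WT libraries S5 and S6 were at 5.27% and 5.72%, between Het S7 at 4.87% and Het S8 at 7.07%. In OBs with over 6% Col1a1, Lrp5 was at 66.3 and 73.0 CPM in WT S1 and S2 and at 34.9 and 23.0 in the Het libraries S3 and S4. In the same bin it was at 112 and 140 in WT S5 and S6 against 65.7 and 106 in Het S7 and S8, so both Het libraries again lay below both WT libraries within each kit version. From 3.5% to 6% Col1a1 the WT and Het libraries overlapped, with 15.8 to 71.6 in WT and 21.4 to 67.9 in Het.

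The level of Lrp5 in mOBs was also set against that in dOBs of the same library, with the exact test chosen after the data were seen. Its level in mOBs over that in dOBs was 2.28 and 2.34 in WT S1 and S2, 2.04 and 2.07 in WT S5 and S6, 1.39 and 1.09 in Het S3 and S4, and 0.993 and 1.40 in Het S7 and S8. Every Het ratio lay below every WT ratio, which held for 1.22% of the 10172 genes with UMIs in all 16 sums. The mean log2 ratio was 1.12 ± 0.10 (SD, n = 4) in WT and 0.27 ± 0.25 (SD, n = 4) in Het, a difference of -0.86 (two-sided exact permutation p = 0.0286, the smallest that 4 against 4 libraries can give, for 10 genes tested and not adjusted). The other 9 genes had exact p-values of 0.0571 or more. Relative to the median gene of each library, Lrp5 (difference -0.92) and Axin2 (difference 0.93) both had the smallest possible exact permutation p of 0.0286. The Axin2 ratios rested on 1 to 17 UMIs per mOB sum and 2 to 45 per dOB sum. All these exact tests relabelled genotypes over all libraries without regard to kit version. Their p-values therefore do not allow for kit version, which the edgeR fits within a stage held as a covariate.

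The genotype by stage term of edgeR for Lrp5 was -0.91 ± 0.20 (edgeR adjusted p = 0.572 over 11187 genes), so it did not pass the correction over all genes. No gene did (0.0% called by edgeR, with 504 genes at an unadjusted p under 0.05 and 3 genes called by DESeq2). In cells thinned to 2000 UMIs the term for Lrp5 was -0.13. The term for Tcf7 was -0.72 ± 0.25 (edgeR adjusted p = 0.9999), and at an unadjusted p under 0.05 Lrp5 and Tcf7 were the 2 of the 10 genes. The other terms were -0.49 ± 0.26 for Lrp4, 0.10 ± 0.15 for Lrp6, 0.16 ± 0.46 for Fzd1, 0.19 ± 0.21 for Fzd2, 0.59 ± 0.44 for Axin2, 0.76 ± 0.47 for Lef1, 0.64 ± 0.53 for Nkd2 and -0.33 ± 0.21 for Ctnnb1. The ratio of Lrp5 to Lrp6 UMIs in mOBs, which needs no library size and was chosen after the levels were seen, was 1.44, 1.91, 1.12 and 1.48 in WT S1, S2, S5 and S6. It was 0.787, 0.516, 0.673 and 1 in Het S3, S4, S7 and S8, below each WT value, while in dOBs the ratio ran from 0.402 to 0.520 in WT and from 0.289 to 0.563 in Het and in eOBs the groups overlapped as well. In other cells each Het ratio (0.159 to 0.215) was likewise below each WT ratio (0.219 to 0.337), so the order was not limited to mOBs.

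In dOBs and eOBs none of the 8 genes tested was called between genotypes, where 0.00981% of genes in dOBs and 0.0% in eOBs were called. In dOBs the largest value was that of Tcf7, 0.49 ± 0.24 (edgeR adjusted p = 0.664), which was 1.21 within kit version 3 and -0.00 within 3.1. Lrp4 was lower in Het within kit version 3 in these stages as well, at -1.08 ± 0.31 in dOBs (edgeR adjusted p = 0.161) and -1.23 ± 0.36 in eOBs (edgeR adjusted p = 0.153), neither called, and was at 0.16 ± 0.20 and 0.17 ± 0.24 within 3.1. Over the 8 libraries Lrp4 was at -0.26 ± 0.24 in dOBs and -0.29 ± 0.27 in eOBs. Lrp5 was at 0.10 ± 0.15 in dOBs, with -0.33 and 0.25 within kit versions 3 and 3.1, and at -0.17 ± 0.27 in eOBs, with -0.65 and 0.01.

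The other values in dOBs were small, with Lrp6 at -0.08 ± 0.13, Fzd1 at -0.03 ± 0.16, Fzd2 at -0.09 ± 0.18, Lef1 at -0.12 ± 0.25 and Ctnnb1 at -0.05 ± 0.14. In eOBs Fzd1 was at 0.50 ± 0.35, Lrp6 at -0.01 ± 0.21, Fzd2 at -0.22 ± 0.26, Lef1 at -0.33 ± 0.31, Tcf7 at 0.04 ± 0.48 and Ctnnb1 at -0.11 ± 0.18. Axin2 and Nkd2 did not pass the low-count filter in either stage. In eOBs the adjusted p-values of edgeR were 0.9998 for all 8 genes. At an unadjusted p under 0.05 there were 751 genes in dOBs and 338 in eOBs, and DESeq2 called 4 and 3 genes, none of them among the 10.

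In other cells none of the 10 genes was called (0.0% of 16962 genes were, 4335 had an unadjusted p under 0.05, and DESeq2 called 1973, Axin2 among them). The largest value was that of Axin2, 1.01 ± 0.31 (edgeR adjusted p = 0.168). The receptors were at 0.94 ± 0.38 (Fzd2), 0.68 ± 0.37 (Fzd1), 0.66 ± 0.25 (Lrp6), 0.12 ± 0.15 (Lrp5) and 0.11 ± 0.21 (Lrp4), and the other genes at 0.43 ± 0.29 (Nkd2), 0.28 ± 0.30 (Tcf7), 0.28 ± 0.16 (Ctnnb1) and 0.17 ± 0.22 (Lef1). Within kit version 3, where the WT suspensions were rich in haematopoietic cells, 6 of the 10 genes were called higher in Het, among them Axin2 (1.77) and Fzd2 (1.78), and 47.4% of 17548 genes were called. Within kit version 3.1 none of the 10 genes nor any other gene was called, and Axin2 was at 0.29 and Fzd2 at 0.11. Composition and genotype cannot be told apart within kit version 3.

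The wider pathway was counted over 6 lists of genes. Between mOBs and eOBs, where 17.7% of all genes were called higher and 18.1% lower, 4 of 11 secreted inhibitors tested were called higher and 5 lower. Sost, which encodes sclerostin, rose by 8.34 ± 0.59 on the log2 scale and Dkk1, an inhibitor that binds LRP5 and LRP6, by 4.75 ± 0.38, while Dkk2 fell by 4.07 ± 0.41 and Sostdc1 fell by 2.68 ± 0.57. The median log2 fold change of this list was -0.60, against -0.03 over all genes tested. Of 6 Wnt ligands tested, 3 were higher in mOBs and 1 was lower, namely Wnt10b (3.29 ± 0.34), Wnt9a (1.24 ± 0.41), Wnt5b (1.05 ± 0.23) and Wnt4 (-1.96 ± 0.35).

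Among 16 other receptors and proteins of receptor turnover 3 were higher and 4 lower, with Lgr6 (1.82 ± 0.26), Rspo3 (-2.89 ± 0.28), Fzd4 (-2.22 ± 0.55) and Fzd9 (-2.22 ± 0.38) the largest. Of 10 other target genes tested 4 were higher, led by Wisp1 (2.62 ± 0.15), Bambi (1.45 ± 0.15) and Cd44 (1.30 ± 0.18), and Wisp2 was lower (-2.51 ± 0.36), in sums where Axin2 and Lef1, also known targets, fell. Of 11 nuclear partners of β-catenin 2 were higher and 4 lower, with the corepressor genes Tle4 (-1.21 ± 0.19), Tle1 (-1.12 ± 0.15) and Tle3 (0.88 ± 0.17) the largest and Tle2 next (-0.83 ± 0.26). Of 22 genes of the signal relay and the destruction complex 3 were higher and 3 lower, among them Nkd1 (-0.99 ± 0.30), the relative of Nkd2, and Csnk1g3 (0.85 ± 0.16), with Ctnnbip1 (-0.82 ± 0.13) and Dvl3 (0.52 ± 0.12) next. The calls for 7 of 16 receptors and 6 of 22 relay genes stand beside calls for 35.8% of all genes.

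Between OBs and other cells, where 13.8% of all genes were called higher and 23.8% lower, 5 of 12 secreted inhibitors were higher and 3 lower, led by Dkk1 (5.79 ± 0.26), Sost (5.57 ± 0.42), Sfrp4 (3.25 ± 0.48) and Sfrp5 (-2.57 ± 0.45). Of 11 other target genes 7 were higher and none lower, among them Wisp1 (2.50 ± 0.24), Tnfrsf19 (2.39 ± 0.29), Gja1 (2.21 ± 0.25) and Twist1 (1.48 ± 0.28), and the median of the list was 1.30 against -0.08 over all genes. Of 12 ligands 5 were higher and 2 lower, led by Wnt2 (-3.43 ± 0.64), Wnt10a (3.04 ± 0.78), Wnt10b (3.03 ± 0.48) and Wnt7b (2.99 ± 0.33). Of 21 other receptors 6 were higher and 6 lower, led by Fzd5 (2.56 ± 0.18), Lgr6 (2.48 ± 0.34), Fzd9 (-2.34 ± 0.28) and Fzd10 (-1.99 ± 0.42). Of 23 genes of the signal relay 5 were higher and 1 was lower, led by Porcn (1.45 ± 0.23) and Wls (1.04 ± 0.23), which act in the secretion of Wnt ligands, with Csnk1g3 (0.81 ± 0.16) and Nkd1 (-0.79 ± 0.16) next. Of 11 nuclear partners 5 were higher and 1 was lower, led by Tle2 (1.73 ± 0.27), Tle4 (-1.08 ± 0.14), Pygo1 (0.95 ± 0.26) and Aes (0.81 ± 0.17).

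From eOBs to dOBs, where 15.4% of all genes were called, 2 of 6 ligands were higher and 1 lower, Wnt10b (2.93 ± 0.35), Wnt9a (1.68 ± 0.40) and Wnt4 (-1.66 ± 0.34). Of 16 receptors 1 was higher, Kremen1 (0.75 ± 0.22), and 3 were lower, Fzd9 (-1.85 ± 0.35), Fzd4 (-1.83 ± 0.52) and Rspo3 (-0.71 ± 0.23). Of 11 secreted inhibitors 2 were higher and 3 lower, led by Sfrp2 (2.0 ± 0.36), Dkk2 (-1.62 ± 0.31), Dkk3 (1.46 ± 0.28) and Sfrp1 (-1.18 ± 0.33). The relay genes Fbxw11 (-0.52 ± 0.11) and Ctnnbip1 (-0.51 ± 0.13) and the nuclear partners Tle1 (-0.62 ± 0.15) and Tcf7l2 (-0.56 ± 0.15) were lower, and the targets Wisp1 (1.32 ± 0.16) and Cd44 (1.10 ± 0.18) higher, with no other call in these lists.

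From dOBs to mOBs, where 26.8% of all genes were called, 4 of 11 secreted inhibitors were higher and 4 lower, led by Sost (5.88 ± 0.32), Dkk1 (3.42 ± 0.26), Sostdc1 (-3.32 ± 0.47) and Frzb (2.93 ± 0.48). Of 16 receptors 3 were higher and 2 lower, led by Rspo3 (-2.17 ± 0.27), Lgr6 (1.81 ± 0.21), Ror1 (-1.12 ± 0.20) and Lgr4 (0.49 ± 0.18). The called ligand was Wnt7b (-2.70 ± 0.80), and the called targets were Wisp2 (-1.86 ± 0.34), Wisp1 (1.31 ± 0.13) and Bambi (1.28 ± 0.13). Of 22 relay genes 2 were higher, Csnk1g3 (0.81 ± 0.15) and Dvl3 (0.35 ± 0.10), and 2 lower, Nkd1 (-1.04 ± 0.26) and Amer1 (-0.71 ± 0.22). Of 11 nuclear partners 2 were higher, Tle3 (0.83 ± 0.14) and Tcf7l2 (0.54 ± 0.14), and 2 lower, Tle4 (-0.82 ± 0.18) and Tle1 (-0.50 ± 0.14).

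Between Het and WT in mOBs 1 of the 71 listed genes tested was called (0.518% of all genes were), Wif1, a secreted Wnt inhibitor, which was lower in Het (-1.23 ± 0.16, edgeR adjusted p = 0.00600). The medians of the 6 lists there ran from -0.28 (nuclear partners, 2 of 11 values above 0) to 0.28 (secreted inhibitors, 5 of 8 above 0), against 0.01 over all genes. No listed gene was called between genotypes in dOBs, eOBs or other cells.

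Genes with a pattern like that of a gene described here were sought over the 24 sums of library and stage, as the correlation of log2(CPM + 5) with the mean of each kit version taken out, among 6698 genes of at least 20 CPM. The sums share libraries and the Col1a1 stages, so these are descriptions. Tcf7 was most like Ifitm5 (Pearson r = 0.95), Smpd3 (0.94) and Copz2 (0.94), and Lrp5 most like Scn3a (0.85), Bglap3 (0.85) and Slc36a2 (0.84). Bglap3 is a near copy of the osteocalcin genes Bglap and Bglap2, so its counts are uncertain. Lef1 was most like Top1 (0.94), Bmp5 (0.94) and Atp10a (0.91).

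Lrp4 was most like Cp (0.89), Adarb1 (0.89) and Dapk1 (0.88), and Lrp6 most like Snx18 (0.92), Tcf12 (0.91) and Rbms1 (0.90). Fzd1 was most like Aebp1 (0.90), Igsf10 (0.89) and Ptn (0.89), Fzd2 most like Ctsd (0.92), Csrp2 (0.92) and Mest (0.91), and Ctnnb1 most like Maml3 (0.82), Rela (0.77) and Cwc15 (0.77). Axin2 and Nkd2 were under 20 CPM. Among the genes themselves the highest correlation over the 24 sums was between Lef1 and Lrp6 (0.84) and the lowest between Tcf7 and Lrp6 (-0.86), followed by Tcf7 and Lef1 (-0.79) and Lrp5 and Axin2 (-0.77).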

How the data were processed

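The authors deposited UMI counts without normalization, as 1 matrix of genes by cells per library, from Cell Ranger on build mm10 (per the labels). Per the file headers a different Cell Ranger release went with each kit version, so effects of kit and software cannot be told apart. Cells with at least 500 genes and under 10% mitochondrial UMIs were kept and doublets were not removed, except in 1 alternative. UMIs were summed per library and population, and sums of fewer than 10 cells were left out. Sums were tested with edgeR 4.0.16 in R 4.3.3 (filterByExpr, TMM, glmQLFit, glmQLFTest), with kit version as a covariate between genotypes and the library as a block between populations. The SE is the absolute log2 fold change divided by the square root of F. The replicate is a library, so p-values measure the spread between libraries. Replicate libraries differed by 3.57 to 6.39 times the sampling noise (chi-square per degree of freedom), so each counted as 1 sample. The fits were tested on simulated data. Cells were read with Python 3.11.15, NumPy 2.4.6, pandas 2.3.3 and SciPy 1.17.1.

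The 10 genes and the pathway lists were chosen with earlier results of these data known. All 10 genes are named in every comparison, as not tested where they did not pass the low-count filter. Of each pathway list the called genes are named, up to the 4 largest by absolute log2 fold change. Alternatives were DESeq2, no low-count filter, library size without collagen genes, no kit term, a replicate block, under 5% mitochondrial UMIs, thinning to 2000 UMIs, looser (1 UMI) and stricter (3 UMIs) OB selection, OBs without markers of other classes, other Col1a1 limits (under 0.5% and over 5%), each kit version alone and each library left out. Leaving out both WT libraries of kit version 3 and the exact permutation test were added after the data were seen. One of the osteoblast markers examined is not reported here.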

Additional observations from a re-analysis of the deposited data

Results flagged for a closer look

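Lef1 in eOBs of the Het library S8 stood at 86.4 CPM, away from the 29.4 to 36.7 of the other 3 Het libraries. Its gap to the nearest of them was 0.872 of the range of the group, above Dixon's critical value at 95% for 4 samples. The sum held 27 cells and 31 UMIs of Lef1. The WT libraries of the same kit version, S5 and S6, were at 81.1 and 67.6 CPM, and the Het library S7 was at 36.7. In all, 80 groups of 4 libraries were examined, and chance alone flags about 1 in 20 groups.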

How the results depend on the processing

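Of 1164 values of single genes under an alternative, 1114 kept their side of the threshold, 12 lost a call, 37 gained one and 1 called value had the other sign: Lrp4 from eOBs to mOBs, 0.64 with the looser OB selection against -0.13. Among those on the same side, 100 values of genes not called in either setting changed sign. For Het against WT in mOBs, where 0 members were called, DESeq2 called 3, no low-count filter 2, under 5% mitochondrial UMIs 1, looser OB selection 1, other Col1a1 limits 1 and kit version 3 alone 2, and leaving out each library in turn gave 0 to 2 members (1 without Het S7 and 2 without Het S8). Of all genes tested, 61 of 9698 were called under 5% mitochondrial UMIs and 57 of 10354 with the looser OB selection. The other Col1a1 limits called 84 of 9219 genes and kit version 3 alone 362 of 10454. In other cells DESeq2 called 1 of the members (1973 of 16962 genes) and kit version 3 alone called 6 against 0 (8323 of 17548 genes). For the genotype by stage term no low-count filter called 1 member against 0 (91 of 20344 genes). From eOBs to mOBs, cells thinned to 2000 UMIs gave 3 members called of 6 tested against 6 of 10. Among all genes, 1049 of 4666 were called after thinning, against 4019 of 11229. The looser OB selection called 8 members of 10 there, where 5302 of 12220 genes were called. The cause of these changes was not tested, except that fewer genes were tested after thinning. Over all genes, Het against WT in mOBs gave 52 calls, against 136 with DESeq2 and 536 without a filter. There were 0 calls without the kit term and 24 after thinning. Leaving out a single library gave from 11 (without WT S2) to 193 (without Het S7). The replicate block, by the number in the title within kit version, called 0 members in mOBs, dOBs, eOBs and other cells and 58 genes in mOBs. Libraries of like number did not deviate together (r = -0.147 to 0.0924), so no pairing by number was seen. With 2 libraries per genotype and kit version the deviations mirror each other, so this check is weak and cannot exclude a pairing. Depth limits Axin2 and Nkd2, which did not pass the low-count filter between genotypes in any OB stage in the fit reported and were tested there only under some alternatives.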
